A study of Mus musculus with 8 samples.

Results

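miR-191 and miR-425 (mmu-miR-191 and mmu-miR-425 in the deposited table) are a pair of neighbouring microRNAs, and their signals were followed here across 3 cell populations sorted from the mouse thymus. They were chosen by name as the rows of the deposited mouse table that carry these 2 symbols, which is 2 of the 1040 mouse probes, with the same probes read in the scanner output of all 8 arrays. The groups were CD45+ cells (3 samples, sorted as EpCAM-, CD45+), cortical thymic epithelial cells or cTECs (2 samples, CD45-, EpCAM+, MHC II+, Ly51+) and medullary thymic epithelial cells or mTECs (3 samples, CD45-, EpCAM+, MHC II+, Ly51-). All 8 came from female NOD wildtype mice, a strain prone to autoimmune diabetes, at 4 weeks of age. The thymi of 10 to 12 mice were pooled for an isolation, so a replicate is a pool and not a single animal. Each RNA was labelled with Cy3 and hybridised to 1 of 8 arrays on 1 slide. The CD45+ sort takes all haematopoietic cells, most of which are thymocytes in this organ.

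A microRNA is cut from a hairpin in a longer transcript, and its seed, bases 2 to 8 of the mature strand, pairs with sites in messenger RNAs whose stability and translation it lowers. miR-191 and miR-425 come from a shared primary transcript within the gene Dalrd3. miR-191 has been described as supporting T-cell survival downstream of cytokine signals, and both microRNAs are in common use as reference levels in PCR of blood and tissue RNA, since they are found in many cell types.

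The mature sequences show which strand each probe reads and which other microRNAs share its seed. They are those of RefSeq on build GRCm38.p6, 5′ to 3′, with the seed in capitals. The members' main strands, the opposite strands of the same hairpins (marked with a star in the deposited table) and the one microRNA that shares a seed with a member are as follows.
miR-191: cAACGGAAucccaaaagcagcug
miR-425: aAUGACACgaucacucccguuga
miR-191*: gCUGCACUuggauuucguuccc
miR-425*: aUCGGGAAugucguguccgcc
miR-489: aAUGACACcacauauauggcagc
With the leading G and the 10 T at its end removed, each of these 5 probes was the exact complement of the sequence given. miR-191 lies at chr9:108568325-108568347 and miR-425 at chr9:108568789-108568811, both on the plus strand. The hairpins are 384 bases apart in RefSeq and also in the deposited table, which places them at chr9:108470650-108470723 and chr9:108471108-108471192 without naming a build. Both hairpins lie inside Dalrd3 and on its strand in RefSeq, and no other gene overlaps them. Whether this is exon or intron is not given in the tables used here. The seeds of the members differ: miR-191 shared its seed with 0 other mature mouse microRNAs of RefSeq and 0 other mouse probes, whereas miR-425 shared its seed with 1 of each, miR-489. miR-425 and miR-489 have the first 8 bases in common and the same base at 12 of 23 positions.

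Signals are given as the scanner's background-subtracted signal, averaged over the 5 spots of a probe and scaled so that the arrays share the same 75th percentile over the 65 mouse probes that were well above background on all 8 arrays. The scanner software flags a spot as well above background by its own test, and a probe counts as such when most of its spots do. Arrays differed in how much they measured. Between 169 and 229 mouse probes were well above background on a CD45+ array and between 236 and 325 on an mTEC array, but only 122 and 98 on cTEC replicates 1 and 2. These 2 arrays also had the lowest 75th percentiles of unscaled signal, at 2910 and 1364, against 4213 to 11503 elsewhere. The sorts were compared with defining microRNAs of other cell types. All 7 epithelial microRNAs (miR-203, miR-205 and the 5 of the miR-200 family) were well above background on every mTEC array, 3 of 7 on both cTEC arrays and 0 of 7 on all CD45+ arrays, although 2 of the 3 CD45+ arrays detected miR-200c and miR-141, and 1 detected miR-205. Thus every mTEC array detected all these epithelial microRNAs, whereas miR-203 and miR-429 were well above background on no cTEC array. Their summed signals were 623 to 704 on CD45+, 4442 to 8620 on cTEC and 36800 to 39058 on mTEC arrays. The paper describes them as characteristic of epithelial cells, so they do not by themselves identify the medullary or the cortical label.

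In CD45+ cells the scaled signal of miR-191 was 6343, 6132 and 5460 (5978 ± 461, SD, n = 3). In mTECs it was 4310, 4297 and 4622 (4410 ± 184, n = 3). In cTECs it was 752 on replicate 1, and 453 on replicate 2, where the probe was not well above background. At this scaling every CD45+ array was above every mTEC array, and both groups lay far above the cTEC arrays. How many other microRNAs separate in this way was not counted. The 5 spots of the miR-191 probe had a coefficient of variation of 7.45% to 10.0% on CD45+ and mTEC arrays, and no spot was an outlier.

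The scaled signal of miR-425 was 1568, 1383 and 1221 in CD45+ cells (1391 ± 174, n = 3). It was 1032, 1094 and 1101 in mTECs (1076 ± 38.1, n = 3). In cTECs the probe read 143 and 193, neither well above background, and both under the weakest signals detected on those arrays, 342 and 621. The order of the cell types was thus the same as for miR-191, again without overlap of CD45+ and mTEC arrays at this scaling. In cTECs miR-425 was not well above background. The spots of miR-425 varied by 3.51% to 17.4% on CD45+ and mTEC arrays. The same one of the 5 was the highest on 6 of 6 of these arrays and was left out as an outlier on 1 of them, CD45+ replicate 2. Signals of different probes are not compared here as amounts, since probes differ in how well they bind and label.

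**Figure D1:**
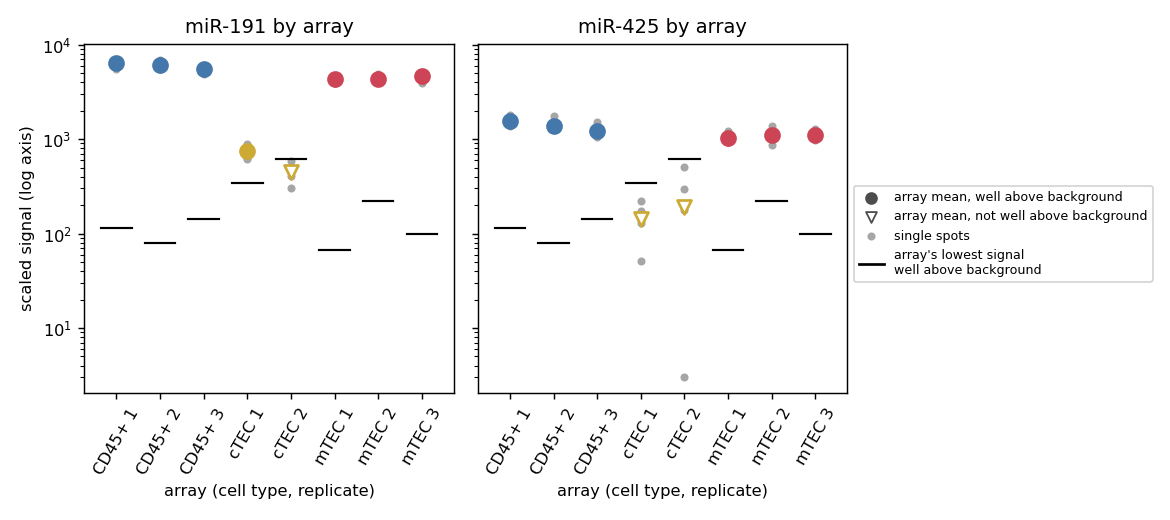
Scaled signal (log axis) of miR-191, left, and miR-425, right, on each of the 8 arrays. Large symbols are the array's mean over the spots, filled where the probe was well above background and open triangles where it was not, small points are single spots, and the black line is the weakest signal detected on that array. miR-191 falls from 4297 or more on CD45+ and mTEC arrays to 752 and 453 on cTEC arrays, and miR-425 lies under the black line on both cTEC arrays. One spot of miR-425 on cTEC replicate 2, at -17.7, has no place on a log axis.

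The opposite strands and the seed partner were close to or under the limit of detection. miR-191* was well above background on 0 of 8 arrays, with scaled signals between 31.2 and 251. miR-425* was so on 1 of 8, mTEC replicate 1. miR-489, which would recognise the same seed sites as miR-425, was so on 0 of 8 arrays. Therefore miR-425 was the only microRNA of its seed that the mouse probes measured in these samples. The limits of these arrays do not show that the others are absent.

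To ask which cell types differ, the 309 mouse microRNAs detected above background on 2 or more arrays were fitted together in 1 limma model of the 3 group means, with scaled signals under a floor of 621.0 set to it and p-values adjusted over all 309. This floor is the weakest signal that counted as well above background on cTEC replicate 2, the least sensitive array. It is not a strict limit: miR-17 (661) and miR-19b (634) lay above it on that array without being well above background. Both members passed this filter through their CD45+ and mTEC arrays. Differences are on the log2 scale.

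Both members were lower in mTECs than in CD45+ cells. miR-191 was lower by 0.44 (log2 difference -0.44, SE 0.088, 95% interval -0.65 to -0.22, adjusted p = 0.0121), at 73.8% of the CD45+ mean. miR-425 was lower by 0.37 (log2 difference -0.37, SE 0.092, interval -0.59 to -0.14, adjusted p = 0.0308), at 77.3% of the CD45+ mean. The miR-425 difference was -0.17 with the deposited table (adjusted p = 0.00730). It was -1.21 when the scaling percentile took in the whole mouse table (adjusted p = 0.0334). Among all tested microRNAs 14.9% were called lower and 9.06% higher here, and 48 and 51 of the 309 had a fitted fall larger than those of miR-191 and miR-425. Both calls depended on the processing. Without CD45+ replicate 2 the differences were still -0.42 for miR-191 (adjusted p = 0.0519) and -0.37 for miR-425 (adjusted p = 0.0969), but neither was called. With the arrays centred on reference microRNAs the miR-191 difference turned to 0.12 (adjusted p = 0.578). Before the floor was set, that centring shifted every microRNA alike by 0.56. The 5 references used for that centring themselves differed by -1.09 to -0.25 in mTECs minus CD45+, none of these 5 called. Before scaling the groups overlapped, with miR-191 at 7868 to 12111 on CD45+ arrays and 3135 to 8585 on mTEC arrays.

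The members had their largest differences against cTECs. The signal of miR-191 was at least 8.73-fold higher in CD45+ cells than in cTECs, taking for the 1 of 2 cTEC arrays without a measured value the weakest signal detected on that array. Over cTEC replicate 1 alone, which measured it, the CD45+ mean was 7.94-fold higher. The fitted difference, cTEC minus CD45+, was -3.13 (SE 0.098, adjusted p = 4.38e-06) with cTEC replicate 2 set to the floor. These sizes depend on the floor and the scaling: the fitted difference was -1.75 with the deposited table and -1.15 with reference centring. miR-425 was at least 3.00-fold higher in CD45+ cells than in cTECs, with 0 of 2 cTEC arrays giving a measured value. Its fitted difference of -1.15 (SE 0.10, adjusted p = 2.78e-04) is set by the floor, at which both cTEC arrays lie without a spread of their own. At this scaling it understates the change. The fitted difference of miR-425 was -3.21 with the lowest floor but only -0.67 with the deposited table. In this comparison 20.1% of tested microRNAs were called lower and 10.7% higher, shares that turned round with normexp background correction (53 lower and 197 higher against 62 and 33).

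Between the 2 epithelial populations both members were higher in mTECs, and 16.2% of the tested microRNAs were called in that direction and 6.47% in the other (50 and 20, against 45 and 156 with normexp). miR-191 was at least 6.45-fold higher in mTECs than in cTECs (fitted log2 difference 2.69, adjusted p = 1.98e-05, with cTEC replicate 2 at the floor), but the fit gave 1.25 from the authors' normalized values and 4.20 without normalization. miR-425 was at least 2.33-fold higher (fitted log2 difference 0.78, adjusted p = 0.00226, with both cTEC arrays at the floor and without a spread of their own). The fit of miR-425 gave 0.50 from the authors' normalized values and 2.84 when the floor was lowest. The bounds in these comparisons hold for the scaling used here and with the weakest detected signal taken as the limit, which is not a strict one. The deposited table gave smaller differences than they do. The bounds of the 2 members cannot be set against each other, because the limit of detection caps what miR-425 can show. Within each of the 2 rows of the slide, the differences of both members kept these directions: miR-191 in cTECs minus CD45+ was -3.06 and -3.13, and in mTECs minus CD45+ it was -0.53 and -0.30, while miR-425 in mTECs minus CD45+ was -0.52 and -0.15. With the slide row as a block the call of miR-425 in mTECs minus CD45+ was lost (adjusted p = 0.0689). With the mean of both epithelial groups set against CD45+ cells, where 20.1% of microRNAs were called lower and 12.3% higher, miR-191 was lower by 1.78 (log2 difference -1.78, adjusted p = 1.51e-05) and miR-425 by 0.76 (log2 difference -0.76, adjusted p = 5.65e-04). These means join unlike differences, and with both epithelial groups fitted as 1 neither member was called (adjusted p = 0.368 and 0.148).

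**Figure D2:**
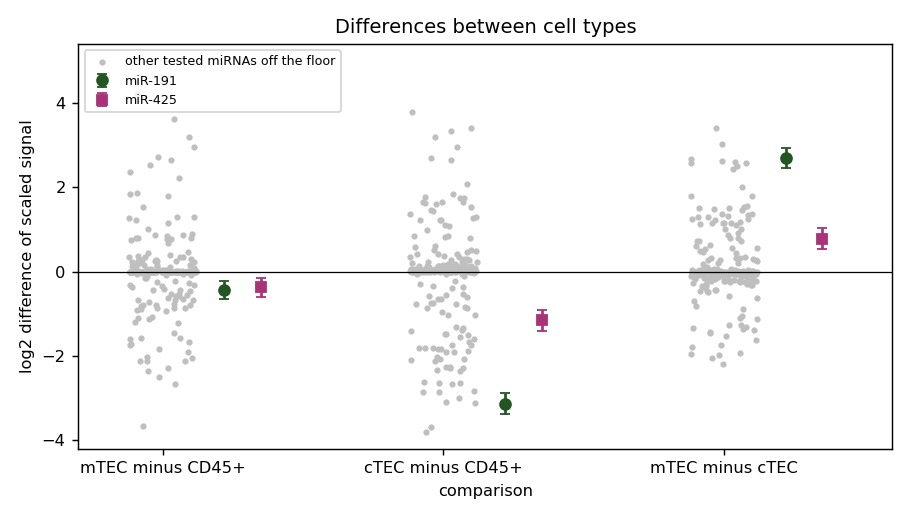
Log2 differences of scaled signal in the 3 pairwise comparisons. Circles are miR-191, squares are miR-425, bars are 95% intervals of the limma fit, and grey points are the other tested microRNAs that were off the floor on at least 1 array. Both members lie a little under 0 in mTEC minus CD45+ (-0.44 and -0.37), and miR-191 lies near the lower end in cTEC minus CD45+ (-3.13, with 1 of 2 cTEC arrays at the floor) and near the upper end in mTEC minus cTEC (2.69).

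In bulk samples a lower share of cells that express a microRNA cannot be told apart from less of it per cell, so the markers of other cell types were read beside these values. The 4 haematopoietic microRNAs (miR-150, miR-223 and both strands of miR-142) summed to 8516 to 11349 on CD45+ arrays, 875 to 1185 on mTEC arrays and 1144 to 2349 on cTEC arrays, which is 10.8% and 18.1% of the CD45+ mean in mTECs and cTECs. All 4 were well above background on every CD45+ array and 2 on every mTEC array. On both cTEC arrays only miR-150 was. The members' signals in mTECs, at 73.8% and 77.3% of CD45+, stood beside this 10.8% of the haematopoietic markers, whose part in them was not tested. On cTEC replicate 1, which measured it, miR-191 was at 12.6% of the CD45+ mean, and miR-150 was at 15.3% on the same array. The part of haematopoietic cells in the cTEC signal was not tested. The 2 endothelial microRNAs summed to 212 to 295 on CD45+, 1527 to 2755 on cTEC and 497 to 550 on mTEC arrays, with miR-126-5p well above background on none of them. The 5 mesenchymal microRNAs summed to 189 to 301 on CD45+, 2232 to 5117 on cTEC and 6294 to 6660 on mTEC arrays, with 0, 1 and 2 of 5 well above background on every array of the group. The 2 erythroid microRNAs summed to 87.0 to 129 on CD45+, 198 to 940 on cTEC and 116 to 228 on mTEC arrays, and were not well above background on every array of any group. The part of these cells in the members' values was not tested.

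Since the members come from a shared transcript, the difference between their log2 signals was taken within each array, where the scaling of the array cancels. Its level depends on the probes, so only its change between arrays was read. The difference, miR-425 minus miR-191, was -2.02, -2.15 and -2.16 on the CD45+ arrays (-2.11 ± 0.080, SD, n = 3) and -2.06, -1.97 and -2.07 on the mTEC arrays (-2.04 ± 0.053, n = 3). The arrays of the 2 cell types interleave through CD45+ replicate 1. The means differed by 0.073, with a 90% rank interval of -0.053 to 0.19 (exact permutation test, two-sided, p = 0.3, where 0.1 is the smallest p this design allows). Without that array the difference was 0.12, and with the deposited table it was 0.34. In both of these the groups did not overlap (p = 0.1 in each by the exact permutation test, the smallest possible). Over these 6 arrays the scaled signal spanned 1.48-fold for miR-191 and 1.52-fold for miR-425, and their ratio spanned 1.14-fold. In cTECs the ratio could not be measured. At the mean ratio of the other arrays miR-425 would have read 179 on cTEC replicate 1 and 108 on replicate 2, both under the weakest detected signals of 342 and 621. On replicate 2 miR-191 itself was not well above background. Only replicate 1 could thus have shown a clearly raised ratio, and it could not have shown a like or a lower one.

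How small this spread is can be read against other pairs of probes. On the 6 CD45+ and mTEC arrays 120 mouse microRNAs were well above background throughout, which gives 7140 pairs that share the same arrays. The SD of the within-array difference was 0.073 for miR-191 and miR-425, and as small or smaller in 8 of the 7140 pairs (0.112%, the pair itself included), against a median of 0.77. Of these, 18 pairs have hairpins within 10000 bases of each other by the positions of the deposited table, with a median SD of 0.22 and a range of 0.073 to 0.56. Only microRNAs with a single position there could be counted. Pairs with a microRNA encoded at several places, and pairs from overlapping hairpins, are thus not among the 18. miR-191 and miR-425 had the smallest SD of the 18, followed by miR-17 and miR-20a of the miR-17-92 cluster (0.087), miR-221 and miR-222 (0.12) and miR-93 and miR-106b (0.12). Several of the 18 pairs share a microRNA, and some, such as miR-17 and miR-20a, have near-identical sequences whose probes can bind each other's target, which miR-191 and miR-425 do not: they had the same base at 5 of 23 positions. Nearness was not the only case of a small spread. miR-191 differed even less from miR-222 (SD 0.058) and miR-221 (0.069), and miR-425 from miR-221 (0.070), which lie on another chromosome. These ranks describe 6 arrays and carry no test.

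**Figure D3:**
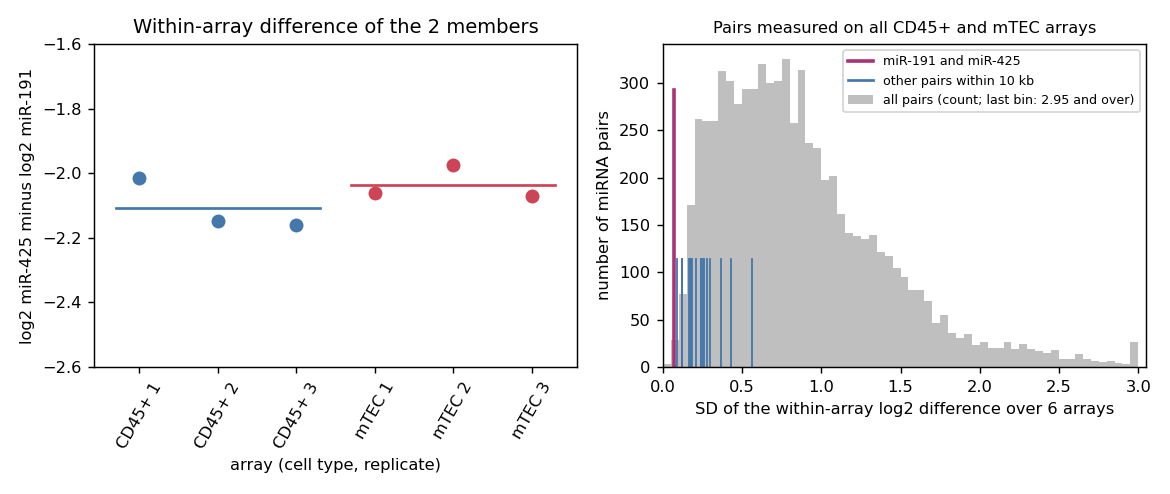
Left: log2 signal of miR-425 minus that of miR-191 on each CD45+ and mTEC array, with lines at the group means (-2.11 and -2.04); the points of the groups interleave within a range of 0.19. Right: SD of the within-array log2 difference over those 6 arrays for all 7140 pairs of 120 microRNAs (grey histogram, the last bin holding larger values). Lines mark the 18 pairs within 10000 bases among microRNAs with a single position, and their height has no meaning. Among these lines miR-191 and miR-425 stand furthest to the left at 0.073.

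The microRNAs whose profile over all 8 arrays was most like that of each member were found among the 65 that were well above background on every array, by the root mean square of the differences of log2 values centred on each microRNA's mean, with the floor applied. For miR-191 these were miR-21 (0.32), miR-16 (0.54), miR-24 (0.60), let-7i (0.61) and miR-155 (0.64), against a median of 1.49 over the 65. The scaled signal of miR-21, a microRNA induced on T-cell activation, was 13048, 14579 and 11860 in CD45+ cells, 1249 and 710 in cTECs, and 8442, 7948 and 6621 in mTECs. It changed by -3.80 in cTECs minus CD45+ (adjusted p = 7.76e-05), and its difference in mTECs minus CD45+ was -0.78 (adjusted p = 0.0530). For miR-425 they were let-7a (0.20), miR-23a (0.21), miR-1944 (0.27), miR-146a (0.31) and let-7g (0.33), against a median of 0.80. The 2 members differed from each other by 0.85 over 8 arrays but by 0.067 over the 6 that measured both, because the floor shortens the fall of miR-425 in cTECs. For the same reason the microRNAs named as like miR-425 are those with a modest fall on this scale.

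The pattern of detection of the members was common. Of the 120 microRNAs well above background on every CD45+ and mTEC array, 28 were so on neither cTEC array, as miR-425, 27 on 1 of 2, as miR-191, and 65 on both. Thus 55 of the 120 were missed on at least 1 cTEC array, and these were also the arrays with the lowest signal before scaling.

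Other microRNAs described in the survival, selection or homeostasis of T cells were read as a list of 20. In mTECs minus CD45+ 15 of the 20 fell and 0 rose, with a median of -1.69. Over all tested 14.9% were called lower, though the 83 at the floor on every array could not be called. The median over all tested was 0, as it also was over the 226 off the floor on at least 1 array. Those that fell included all 6 measured members of the miR-17-92 cluster, which promotes lymphocyte survival, among them miR-92a (-2.12, adjusted p = 2.55e-04), and miR-181a, which raises the sensitivity of the T-cell receptor (-3.67, adjusted p = 0.00171). The 5 that did not pass the test were miR-16, miR-155, miR-146a, miR-21 and miR-29a. miR-146a, which restrains NF-kB signalling, differed by 0.01 (adjusted p = 1). In cTECs minus CD45+ all 20 fell, with a median of -2.50, against 20.1% called lower over all tested. Only 9 of the 20 were well above background on all 8 arrays, so the floor sets the size of many of these falls, and no order is read from them. In mTECs minus cTECs 11 of 20 rose and 0 fell, with a median of 0.73, against 16.2% called higher. The scaled signal of miR-181a was 12428, 13724 and 13615 in CD45+ cells, 1251, 875 and 1033 in mTECs and 3615 and 961 in cTECs. It was lower than in CD45+ cells in both epithelial populations (cTECs minus CD45+ -2.84, adjusted p = 0.00741), whose arrays overlapped (mTECs minus cTECs -0.82, adjusted p = 0.395).

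MicroRNAs used as PCR references, as miR-191 and miR-425 are, were read as a list of 9. In mTECs minus CD45+ 2 of the 9 fell, miR-103 (-0.79, adjusted p = 5.68e-04) and miR-93 (-1.58, adjusted p = 9.74e-05), and 0 rose, with a median of -0.46. This count is close to the 14.9% of all tested microRNAs called lower. In cTECs minus CD45+ 7 of 9 fell, with a median of -1.81, against 20.1% of all tested, and in mTECs minus cTECs 7 of 9 rose, with a median of 1.15, against 16.2%. The medians over all tested were 0 in both comparisons. Over the 226 off the floor on at least 1 array they were 0.027 and -0.018. Many of these 226 still lay at the floor on most arrays, so no contrast is read from the medians. The exceptions in both were miR-423-5p and miR-423-3p, which lay at or near the floor. Of the 9, let-7a moved least among those well above background on all 8 arrays: 6786, 7300 and 5776 in CD45+ cells, 4264 and 3690 in cTECs and 5843, 5776 and 5060 in mTECs (cTECs minus CD45+ -0.73, adjusted p = 0.00478). Thus both members and 7 of the 9 references differed between at least 1 pair of the 3 populations on these arrays.

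Each array was also centred on the 5 reference microRNAs that were well above background on all 8 arrays (miR-16, miR-24, miR-26a, miR-23a and let-7a). Before the floor was set, this shifted the difference of every microRNA alike, by 0.56 in mTECs minus CD45+ and by 1.69 in cTECs minus CD45+. Relative to these references, miR-191 differed by 0.12 between mTECs and CD45+ cells (exact permutation test, two-sided, p = 0.3) and miR-425 by 0.19 (p = 0.2), where 0.1 is the smallest p the design allows. Their arrays overlapped between the 2 cell types. On cTEC replicate 1, which measured it, the difference of miR-191 from the CD45+ mean was still -1.71. Hence on that array miR-191 lay lower than the references did, while the difference between mTECs and CD45+ cells was not held by this centring.

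**Figure D4:**
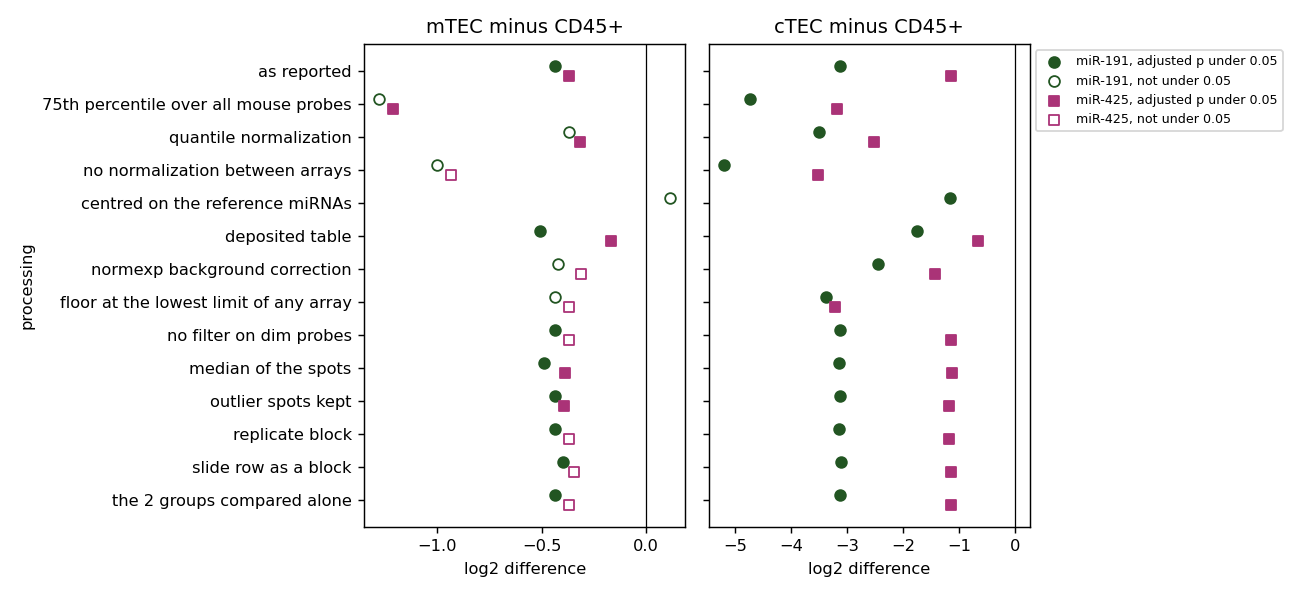
Log2 difference of miR-191 (circles) and miR-425 (squares) under each way of processing the arrays, for mTEC minus CD45+, left, and cTEC minus CD45+, right; filled symbols have an adjusted p under 0.05, and the rows that leave out 1 array are not drawn. In cTEC minus CD45+ every symbol is filled and lies under 0, with miR-191 between -5.21 and -1.15. As reported, both cTEC values of miR-425 lie at the floor, which fixes its direction there. In mTEC minus CD45+ the symbols run from -1.28 to 0.12, many are open, and miR-191 is above 0 when centred on the reference microRNAs.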

How the data were processed

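The authors deposited the Feature Extraction output of each array (spot intensity with and without background subtraction, version 10.7.3.1 per the file headers) and a table of log2 intensity for 1040 mouse probes, which its name calls quantile normalized, with their own fold changes and p-values, which were not used. The submitters' processing notes name limma. The probes' 5 spots were taken from the background-subtracted signal, outliers by the scanner's flags were left out, arrays were scaled to the 75th percentile over 65 probes, and log2 values were averaged over spots after setting the floor of 621.0. Differences were tested with limma 3.58.1 in R 4.3.3 (lmFit, eBayes, Benjamini-Hochberg over 309 microRNAs, of which 83 were at the floor on every array), and the steps were tested on simulated data. No spot was saturated. The number of arrays limits the precision. The text names the members, their opposite strands, probes sharing a seed, the marker, T-cell and reference lists, and the 5 microRNAs of most similar profile. The pairs of probes were compared in addition, and microRNAs named from those pairs, or as examples from a list, were chosen after their values were seen. The members, lists and floor were chosen with earlier results of these data known. Alternatives were other scalings, the deposited table, normexp with an offset of 50, a lower floor, other filters, the median of spots, blocks for replicate number and slide row, the 2 groups alone and each array left out. Keeping outlier spots was added after seeing the data.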

Additional observations from a re-analysis of the deposited data

How the results depend on the processing

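For cTECs against CD45+ cells and mTECs against cTECs, both members kept their direction and an adjusted p under 0.05 in every alternative that gave a value (21 for miR-191 and 20 for miR-425), with miR-191 in cTECs minus CD45+ between -5.21 and -1.15 and miR-425 between -3.52 and -0.67. Where both cTEC arrays of miR-425 were set to the floor, its direction was fixed in advance, so those alternatives do not test it. Values for mTECs minus CD45+ that lost the call were, for miR-191, -1.28 when the scaling percentile took in the whole mouse table (adjusted p = 0.0718), -0.37 with quantile normalization (0.737), -1.002 without normalization (0.145), -0.42 with normexp (0.103) and -0.44 with the lowest floor (0.176), and it reversed to 0.12 with reference centring (0.578). For miR-425 they were -0.93 without normalization (adjusted p = 0.128), -0.31 with normexp (0.256), -0.37 with the lowest floor (0.176), -0.37 with no filter (0.115), -0.35 with the slide row as a block (0.0689) and -0.37 with the 2 groups alone (0.0563). Leaving out 1 array gave -0.50 to -0.39 for miR-191, with an adjusted p up to 0.0519, and -0.46 to -0.28 for miR-425, with an adjusted p up to 0.0976. miR-425 lost its call without CD45+ replicate 2 or any 1 cTEC or mTEC array, and miR-191 without CD45+ replicate 2. With both epithelial groups fitted as 1, their difference from CD45+ cells was -1.51 for miR-191 (adjusted p = 0.368) and -0.68 for miR-425 (0.148). The cause was not tested.

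Deviations of same-numbered arrays correlated at -0.23 to 0.28 (3 of 7 pairs over 0.1). Centred within groups, they cannot decide pairing. With the replicate block the difference of miR-425 in mTECs minus CD45+ was -0.37 (adjusted p = 0.0816), and no other call of the members changed. The within-array difference of the members between mTECs and CD45+ ran from 0.042 to 0.34 over its alternatives. MicroRNAs called in mTECs against CD45+, cTECs against CD45+ and mTECs against cTECs numbered 74, 95 and 70. Reference centring (floor 1727) gave 23, 37 and 31, and the filter on all 8 arrays 31, 53 and 38. Normexp gave 118, 250 and 201, and the lowest floor 140, 224 and 129. The count was 119 in mTECs against CD45+ with the deposited table, 155 in cTECs against CD45+ with quantile normalization, and 39 in mTECs against cTECs with the percentile of the whole mouse table. Without cTEC replicate 1 it was 170 in cTECs against CD45+ (110 higher, 60 lower) and 147 in mTECs against cTECs (47 higher, 100 lower). The split into higher and lower moved with the processing. Against CD45+ it was 28 and 46 in mTECs and 33 and 62 in cTECs, but 67 and 51, and 197 and 53, with normexp, 14 and 9, and 25 and 12, with reference centring, and 18 and 92, and 6 and 114, with the percentile of the whole table. For mTECs against cTECs it was 50 and 20, but 45 and 156 with normexp, 41 and 41 with quantile normalization, 11 and 20 with reference centring and 73 and 0 without normalization. Reference centring put miR-425 at the floor everywhere and the filter on all 8 arrays left out both members, so these gave no value. The ratio in cTECs was not read, since miR-425 was well above background on neither cTEC array.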
